A study of Mus musculus with 12 samples.

Results

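Atrx, Med14 and Ogt are X-linked mouse genes for chromatin and transcription proteins, and their transcripts were followed here base by base while mouse embryonic fibroblasts (MEF) were reprogrammed. The sites described are the single-base variants covered by at least 20 reads that the deposited chromosome X variant tables assign to one of the 3 genes. There were 160 such sites among 6478 in all 12 tables, 81 in Atrx, 36 in Med14 and 43 in Ogt.

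The reprogrammed cells carried the Sendai virus vector SeVdp(fKOSMaB), and fell into 3 courses with 1 library for each course and day. The course labelled MidK2 was sampled at days 18, 22, 29 and 36 and the course labelled MidK1 at days 35, 52 and 56, both with 30 nM Shield1, which binds and stabilises proteins that carry a matching destabilising domain. The course labelled LowK was sampled at days 35, 52 and 56 without Shield1. MEF2 and MEF1 were the day 0 fibroblast libraries, without vector or Shield1. Tables of MEF2 and MidK2 were made with lower reporting limits than those of MEF1, LowK and MidK1, so each reprogrammed library was set against the MEF library of its own set. The sources used here do not give the mouse strain, the parental origin of each X, any use of feeder cells or whether MEF2 and MEF1 were grown as separate cultures. The tables hold X-linked variants alone, so marker genes of fibroblasts or of pluripotent cells on other chromosomes were not analysed here.

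A female cell silences most genes on 1 of its X chromosomes, and reprogramming to pluripotency can reactivate the silent copy. Where the copies differ at a base, transcripts of a cell population show 1 base while a single copy is used and both bases once both are used. Atrx is a SWI/SNF-family chromatin remodeller that works with Daxx to deposit histone H3.3 at repeats and telomeres. Med14 is the backbone subunit that holds the modules of Mediator, the coactivator linking transcription factors to RNA polymerase II. Ogt is the enzyme that attaches O-GlcNAc to serines and threonines of nuclear and cytosolic proteins.

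For each site the reference share was computed, the percentage of reads that did not carry the listed variant base. The libraries listed 3245 to 7991 variants, of which 1507 to 3871 were single-base sites with at least 20 reads, carrying 138579 to 279031 reads at a median coverage of 35 to 39. The reads had no molecular identifiers and 1 read can span several sites, so every interval and read-based test below covers counting error only. With 1 library per course and day, such a test compares 2 libraries and not the conditions. Whether a base that differs from the reference was on 1 X chromosome or on both is not stated in the tables, and positions with reference reads only are not listed.

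Atrx had at least 1 site in all 12 tables, with 22 to 55 sites per library. Ogt also had sites in all 12 tables, with 16 to 36 per library. Med14 had sites in 10 tables and in neither MEF library: 23, 28, 24 and 32 in MidK2 at days 18, 22, 29 and 36, 13, 6 and 15 in MidK1 and 11, 17 and 27 in LowK at days 35, 52 and 56. Of the Atrx sites 14 were listed in all 12 tables and 24 in a single table. For Ogt these counts were 13 and 10, and 8 Med14 sites were listed in a single table. Atrx lies on the minus strand of chromosome X at 105797615 to 105929403, Med14 on the minus strand at 12675369 to 12762073 and Ogt on the plus strand at 101640060 to 101684351 (GRCm38, the same assembly as mm10; GENCODE M21).

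The sites that carry the contrast between the genes are shown first, each as a window of the reference transcript, 5′ to 3′, with the reference base of the variant site in capitals. In Med14 the coding sites in exons 27 and 6 (C-to-T and G-to-A on the transcript strand, both keeping the amino acid) and the 3′ UTR site (A-to-C) lie at chrX:12684204-12684244, chrX:12747878-12747918 and chrX:12676417-12676445, all on the minus strand.
Med14 exon 27: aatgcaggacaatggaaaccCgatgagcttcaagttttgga
Med14 exon 6: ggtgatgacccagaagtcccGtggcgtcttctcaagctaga
Med14 3′ UTR: tgtactgtctcttgAagccagtcagggac
The Med14 exon 27 site had a reference share of 34.3, 33.7, 45.8 and 47.4% in MidK2 at days 18, 22, 29 and 36. It was at 5.71, 0 (Wilson interval up to 13.8%) and 13.9% in MidK1 and 7.14, 19.6 and 13.7% in LowK at days 35, 52 and 56. The 3′ UTR site had 25.9, 30.0, 40.9 and 45.3% in MidK2, 3.57, 8.57 and 5.56% in MidK1 and 0 (up to 11.7%), 8.82 and 13.9% in LowK. The exon 6 site had 29.0, 31.9, 41.9 and 37.0% in MidK2, 0 and 8.11% in MidK1 at days 35 and 56, and 0, 24.2 and 11.1% in LowK. At all 3 sites every MidK2 library was above every MidK1 and LowK library that lists the site. Not every Med14 site showed this. At the 3′ UTR site at 12676205, MidK2 at day 18 had 17.0%, below the 24.2% of LowK at day 52.

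In Atrx the windows are a coding site in exon 13 (A-to-G, keeping the amino acid) at chrX:105853293-105853333 and a 3′ UTR site (C-to-A) at chrX:105799041-105799069, both on the minus strand. In Ogt they are a coding site in exon 19 (C-to-T, keeping the amino acid) at chrX:101676149-101676189 and a 3′ UTR site (A-to-G) at chrX:101684102-101684130, both on the plus strand.
Atrx exon 13: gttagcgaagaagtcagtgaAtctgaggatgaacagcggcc
Atrx 3′ UTR: tttcaagtttgatcCgagttgggttccct
Ogt exon 19: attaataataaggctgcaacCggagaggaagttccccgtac
Ogt 3′ UTR: tttttccgacacaaAaagtagccactgcg
The Atrx exon 13 site was at 0 to 11.1% in all 12 libraries, with the highest value in MidK2 at day 22. The Ogt exon 19 site was at 0 to 10.6%, highest in MidK2 at day 29, and the Ogt 3′ UTR site at 0.40 to 9.82%, highest in MidK1 at day 52. At these Atrx and Ogt sites the variant base therefore made up most reads in fibroblasts and reprogrammed cells alike.

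Not every site of the 3 genes had a low reference share, and 43 of the 160 had a pooled share of at least 50%: 23 in Atrx, 10 in Med14 and 10 in Ogt. Of these, 11 lay within 15 bases of an insertion, deletion or replacement listed in at least 3 tables, and 31 were listed in only 1 or 2 tables. The windows below, in the same notation, hold a site of each gene beside such a length variant: Atrx exon 15 at chrX:105851209-105851249 and Med14 3′ UTR at chrX:12676313-12676341, both on the minus strand, and Ogt 3′ UTR at chrX:101682677-101682705 on the plus strand.
Atrx exon 15: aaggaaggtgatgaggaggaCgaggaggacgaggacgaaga
Med14 3′ UTR, beside an insertion: ttgttttgttttgtGtgtttttttaaatg
Ogt 3′ UTR, in a run of T: atccttttttttttCtttatattttgggt
The reference base made up most reads of these sites in every library that lists them. The Atrx site had 64.3 to 85.7% in 12 libraries, the Med14 site 58.3 to 76.5% in 8 and the Ogt site 59.8 to 75.9% in 10. The part of read alignment in these values was not tested.

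**Figure D1:**
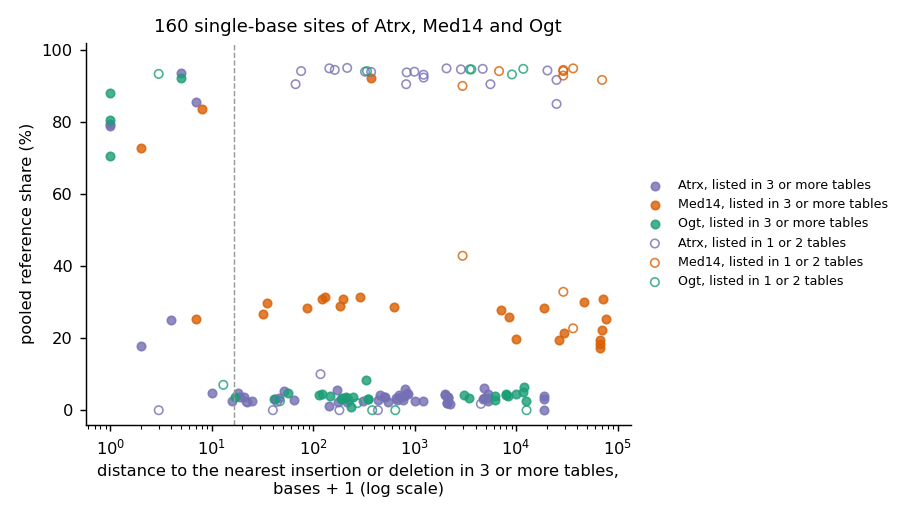
Pooled reference share of each of the 160 sites (y axis, %) against its distance to the nearest insertion, deletion or replacement listed in at least 3 tables (x axis, bases + 1, log scale), coloured by gene, with filled symbols for sites in at least 3 tables and open symbols for sites in 1 or 2. The dashed line marks the limit of 15 bases; the 43 sites at 50% or more are mostly open symbols or lie left of the line.

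Most results are therefore given over all sites and over core sites. Core sites are those listed in at least 3 tables and more than 15 bases from such a length variant, a rule added after the data were seen. Core sites numbered 46 in Atrx, 23 in Med14 and 26 in Ogt. They were coding for 43 Atrx sites, 13 Med14 sites and 11 Ogt sites, lay in the 3′ UTR for 3, 10 and 13, and for 2 Ogt sites in an intron. Among the coding ones 15 in Atrx, 2 in Med14 and 0 in Ogt changed an amino acid. In Med14, 10 of the sites that were no core site were listed in 1 or 2 tables and 3 lay beside a length variant.

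Med14 was the member whose reference share differed most between courses. At core sites it was 27.2, 34.3, 43.5 and 45.5% in MidK2 at days 18, 22, 29 and 36, with Wilson intervals of 24.6 to 30.0, 31.8 to 36.9, 40.7 to 46.3 and 43.3 to 47.8%. From day 22 on these values include a site at 88.3 to 93.8% that neither day 18 nor the other courses list. At the 18 sites listed on every MidK2 day the share was 27.2, 31.0, 42.0 and 43.0%. In MidK1 the share at core sites was 6.06, 4.46 and 7.38% at days 35, 52 and 56, with intervals of 3.96 to 9.18, 2.18 to 8.92 and 5.25 to 10.3%. In LowK it was 0.82, 14.7 and 12.9% at the same days, with intervals of 0.23 to 2.94, 11.9 to 17.9 and 11.0 to 15.2%. The lowest MidK2 library was thus above the highest LowK library. In a bulk sample, fewer cells that use both copies and less RNA from the second copy in each cell cannot be told apart. Over all sites MidK2 was again the highest course, with 37.5, 44.3, 50.2 and 53.1% in MidK2, 16.1, 4.46 and 7.38% in MidK1 and 5.68, 19.1 and 18.1% in LowK. MidK2 tables, with lower reporting limits, can list sites of higher reference share than those of MidK1 and LowK, which can add to this all-site gap.

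**Figure D2:**
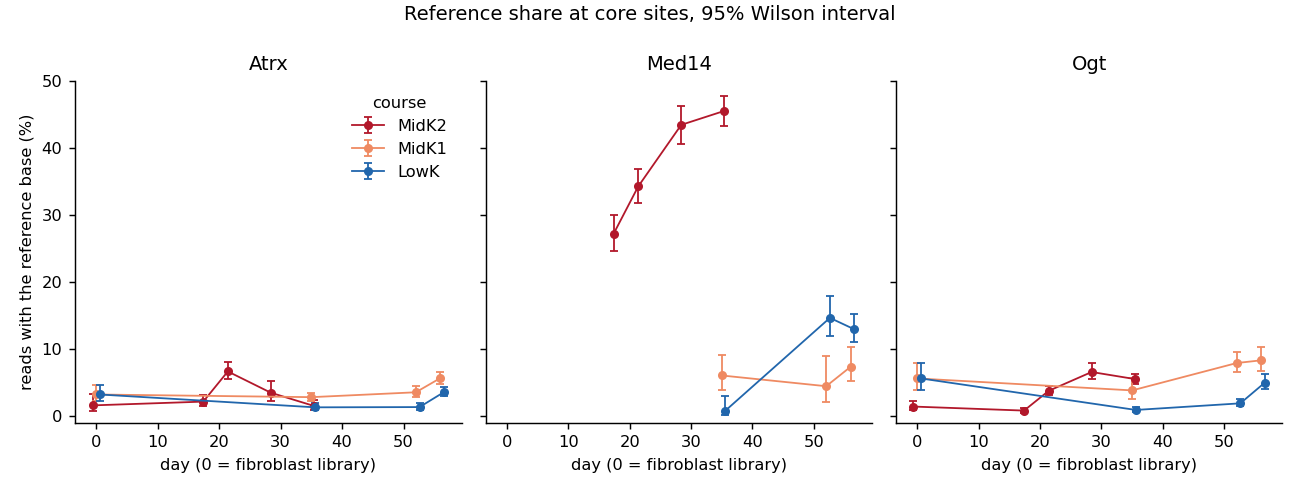
Reference share at core sites (y axis, % of reads) by day (x axis, day 0 being the fibroblast library), 1 panel per gene, 1 line per course, with 95% Wilson intervals over reads; points of a day are set slightly apart. Med14 in MidK2 lies between 27.2 and 45.5%, whereas Atrx and Ogt stay below 10% in all 12 libraries, and Med14 has no fibroblast value.

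MidK2 at day 36 and MidK1 at day 35, both with Shield1, were the nearest days of the courses with that ligand. Med14 had 54.8% in MidK2 and 16.1% in MidK1 over the 13 sites listed in both, a difference of 38.6 percentage points, called by Fisher's exact test (p adjusted by Benjamini-Hochberg across genes of the pair to under 0.05, and a difference of at least 20 points). Over all genes 2.44% were called in this pair, and Med14 ranked 1 of 246 by its difference. At core sites the values were 45.9 and 6.06%, a difference of 39.8 points with adjusted p = 5.30e-45 in Fisher's exact test, and it ranked 1 of 243. Each of the 11 core sites in both libraries was higher in MidK2, by 30.7 to 49.3 points. Atrx differed by -1.10 points (adjusted p = 0.442, Fisher's exact test) and Ogt by 1.56 points (adjusted p = 0.254), beside a median of -1.58 points over all genes. At any size of difference 36.6% of genes passed the adjusted p over all sites and 31.3% over core sites. These courses come from different sets of tables.

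**Figure D3:**
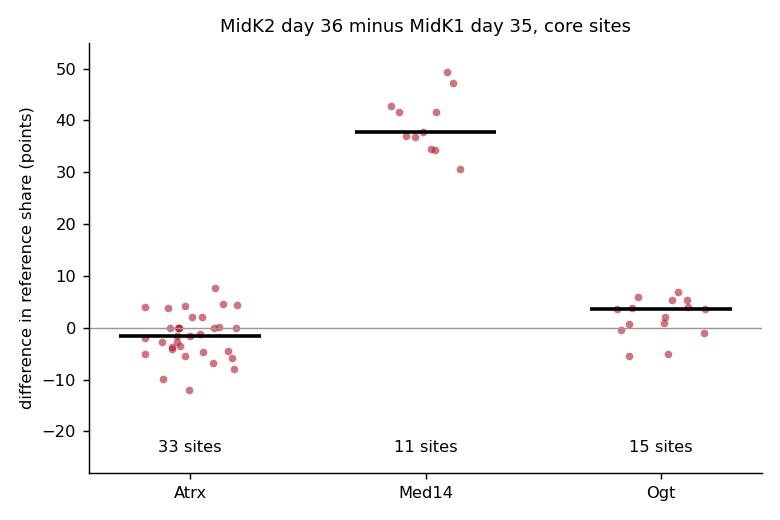
Difference in reference share between MidK2 at day 36 and MidK1 at day 35 (y axis, percentage points, MidK2 minus MidK1) for each core site listed in both libraries, by gene, with a bar at the median of the sites. The 11 Med14 sites all lie above 30 points, apart from the Atrx and Ogt sites, which lie around 0.

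The raised Med14 share in MidK2 was spread over coding and 3′ UTR sites. There the median over core sites was 28.1, 31.4, 41.9 and 44.6% at days 18, 22, 29 and 36. In MidK1 it was 5.41, 3.23 and 6.06%, and in LowK 0, 14.3 and 12.2%, at days 35, 52 and 56. Coding sites pooled gave 27.4, 29.8, 38 and 38.6% in MidK2, and 3′ UTR sites 27.1, 37.3, 45.7 and 48.8%. The 3′ UTR values from day 22 on are raised by the site at 12675959, given below, which is not listed at day 18. Part of the gap to the coding sites on those days rests on that site. Both bases made up 10 to 90% of the reads at 18 of 18, 22 of 23, 20 of 21 and 22 of 23 core sites in MidK2. In MidK1 this held for 1 of 11, 1 of 6 and 3 of 15 sites and in LowK for 0 of 10, 9 of 15 and 16 of 22. The highest core site in MidK2 was a 3′ UTR site at chromosome X position 12675959, listed on days 22, 29 and 36 alone, at 93.8, 88.3 and 93.7%. The lowest at day 36 was a coding site at 12744767, at 20%, and at day 29 a coding site at 12744719, at 5.0%. A 2-base substitution of Med14 at 12676585 to 12676586, which is no member, gave 32.0, 26.0, 42.3 and 45.5% of reads without it in MidK2, 0, 0 and 5.0% in MidK1 and 3.03, 6.12 and 17.8% in LowK.

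**Figure D4:**
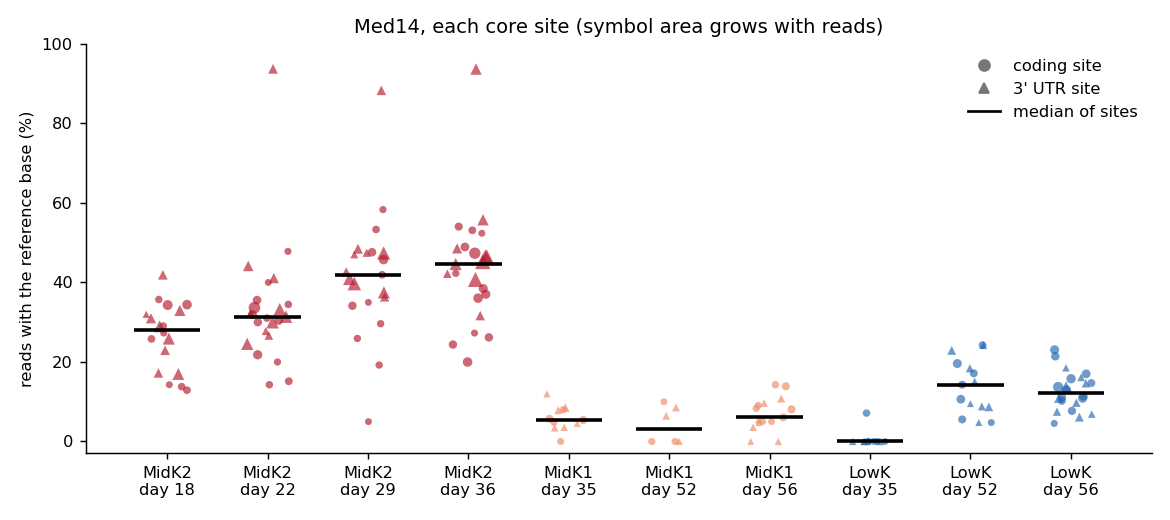
Reference share of every Med14 core site (y axis, %) in the 10 libraries that list Med14, ordered by course and day on the x axis, with circles for coding sites, triangles for 3′ UTR sites, symbol area growing with reads and a bar at the median of the sites. The medians run from 28.1 to 44.6% in MidK2, 3.23 to 6.06% in MidK1 and 0 to 14.3% in LowK.

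Between consecutive days, Med14 passed the adjusted p in 2 of 7 pairs, both times upward, where 24.5% of all genes and pairs passed over all sites and 25.2% over core sites. In LowK it was at 15.6% at day 52 against 0.98% at day 35 over shared core sites, a difference of 14.7 points (adjusted p = 4.36e-08, Fisher's exact test), and 8 of 8 sites were higher, by 5.56 to 24.2 points. In MidK2 it was 9.36 points higher at day 29 than at day 22 (adjusted p = 4.95e-05, Fisher's exact test), with 17 of 21 sites higher. The other MidK2 steps were 3.77 points at day 22 over day 18 (adjusted p = 0.106, Fisher's exact test), with 13 of 18 sites higher, and 2.05 points at day 36 over day 29 (adjusted p = 0.441), with 11 sites higher and 10 lower. Over core sites the median gene moved by 0.427 points in the LowK step to day 52. In the MidK2 steps to days 22, 29 and 36 it moved by 4.23, -0.0668 and -2.19 points. The Med14 step to day 22 in MidK2 was thus below that of the median gene, at rank 151 of 281. Between the ends of the MidK2 course 16 of 18 Med14 sites were higher at day 36 than at day 18. Over all sites the LowK step was 11.9 points (adjusted p = 6.79e-04, Fisher's exact test) and the MidK2 step 9.32 points. No step reached the 20 points of a call.

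Which base's reads moved was read at the sites listed on every day of a course, as reads per 100000 reads at all sites so listed, which is no expression level of the gene. In MidK2 the 18 such Med14 sites had 155.4, 189.1, 262.5 and 310.6 reads of the reference base per 100000 at days 18, 22, 29 and 36. Reads of the variant base at the same sites were 415.6, 421.1, 362.2 and 411.5 per 100000. The reference base thus had more reads on each later day, and the variant base showed no such order. In LowK, 8 sites had 1.6, 35.8 and 39.9 reads of the reference base per 100000 at days 35, 52 and 56, and 161.1, 192.8 and 286.5 of the variant base. There both bases had more reads at day 56 than at day 35. The reference base counted 2, 51 and 54 reads on the 3 days, so its values at days 52 and 56 were close. No error beyond counting can be given for these levels.

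**Figure D5:**
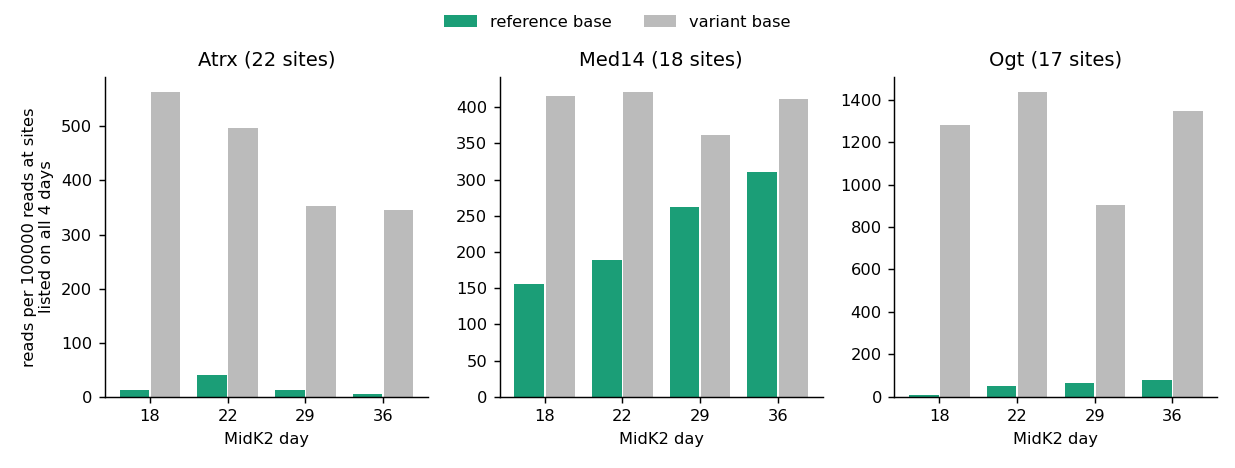
Reads of the reference base and of the variant base (y axis, per 100000 reads at sites listed on all 4 MidK2 days) at each MidK2 day (x axis), 1 panel per gene with its own scale. Med14 reference reads are 155.4 per 100000 at day 18 and 310.6 at day 36, while reference reads of Atrx and Ogt reach at most 77.5 per 100000.

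Set against LowK at matched days, Med14 in MidK1 was higher at day 35 and lower at days 52 and 56. Over shared core sites the differences were 5.39 points at day 35 (adjusted p = 0.0436, Fisher's exact test), -9.65 points at day 52 (adjusted p = 0.00851) and -5.78 points at day 56 (adjusted p = 0.00775). At day 35 4 of 6 sites were higher in MidK1, at day 52 5 of 6 were lower and at day 56 12 of 15 were lower. Among all 245 genes of the day 52 pair, Med14 had the lowest difference over all sites, beside a median of 1.96 points. The 9 tests of the 3 genes gave no call over all sites, where 8.3% of all genes were called. The adjusted p alone was passed by 6 of the 9 over all sites and by 9 of 9 over core sites, against 34.4% of all genes in both. Over the 3 days taken as units, the mean difference in Med14 was -4.97 points over all sites (p = 0.300, two-sided exact permutation test, whose smallest p here is 0.1). At core sites the mean difference was -3.51 points (p = 0.400, exact permutation test).

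Med14 could not be tested against fibroblasts at 20 reads. At a minimum of 10 reads, MEF2 had 8 Med14 sites with 87 reads and a reference share of 10.3%, and MEF1 had 7 sites with 81 reads and 6.17%. The MEF2 value held a site at 80% that is no core site. Over the 6, 7, 7 and 7 sites shared with MEF2, MidK2 had 30.9, 32.2, 41.6 and 42.9% at days 18, 22, 29 and 36, against 1.49, 1.30, 1.30 and 1.30% in MEF2. The 4 differences, 29.4, 30.9, 40.3 and 41.6 points, were called (adjusted p = 8.23e-08, 3.94e-10, 4.09e-14 and 4.23e-15, Fisher's exact test). At this minimum 7.59% of all genes and pairs were called between MidK2 and MEF2, and 6.48% over all own-MEF pairs. All 4 rest on 67 to 77 reads of the same MEF2 library, of which 1 had the reference base. The 6 LowK and MidK1 libraries differed from MEF1 by -4.74 to 7.69 points at this minimum and none passed the adjusted p in Fisher's exact test.

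Atrx kept a low reference share throughout. At core sites it was 2.16, 6.66, 3.49 and 1.52% in MidK2 at days 18, 22, 29 and 36, against 1.60% in MEF2. It was 2.83, 3.55 and 5.67% in MidK1 and 1.31, 1.34 and 3.59% in LowK at days 35, 52 and 56, against 3.22% in MEF1. The highest value stood at MidK2 day 22, and the fibroblast values lay within the range of the reprogrammed libraries. All sites include those beside length variants and those listed in 1 or 2 tables. Over them the shares were 15.7, 23.5, 26.9 and 19.1% in MidK2 and 19.3% in MEF2. They were 8.40, 6.16 and 9.58% in MidK1 and 8.64, 3.96 and 10.2% in LowK, against 9.49% in MEF1. MEF2 and MidK2 tables, with lower reporting limits, can list sites of higher reference share. This can add to the all-site gap between the sets of tables.

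The MidK2 day 22 value was 7.68% against 1.60% in MEF2 over shared core sites, 6.08 points higher (adjusted p = 5.50e-06, Fisher's exact test), and over all sites 5.82 points higher (adjusted p = 0.00446, Fisher's exact test). It was 4.61 points above day 18 (adjusted p = 3.75e-08, Fisher's exact test) with 23 of 32 sites higher. Day 29 was 4.08 points below day 22 (adjusted p = 0.00709, Fisher's exact test), with 15 of 22 sites lower. At day 22 the chromosome stood higher at most genes tested: the median gene was 7.95 points above MEF2 and 68.1% of genes passed the adjusted p, over all sites. The Atrx rise over the same sites was thus no larger than that of the median gene. In LowK, Atrx fell by 2.19 points at day 35 and 1.70 points at day 52 relative to MEF1 (adjusted p = 0.00161 and 0.0446, Fisher's exact test, core sites). Smaller rises passed at MidK1 day 56 over MEF1, by 2.01 points, and at MidK2 day 29 over MEF2, by 2.40 points (adjusted p = 0.0464 and 0.0396, Fisher's exact test, core sites). Over all sites none of these 4 passed, and the LowK day 35 difference was 0.0566 points.

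MidK1 had a higher Atrx share than LowK at days 35, 52 and 56, by 1.5, 2.12 and 2.06 points over core sites (adjusted p = 0.00176, 0.000302 and 0.00177, Fisher's exact test). The median gene differed by 1.95, 1.88 and 2.85 points in these pairs, and 29 of 41, 28 of 39 and 30 of 45 Atrx sites were higher in MidK1. Over all sites 1 of the 3 passed, at day 52 (1.96 points, adjusted p = 0.029, Fisher's exact test). At the 22 Atrx sites listed on every MidK2 day, reference reads were 12.4, 40.8, 12.8 and 4.5 per 100000 at days 18, 22, 29 and 36, beside 563.6, 497.9, 353.0 and 345.2 of the variant base.

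Ogt also kept a low share. At core sites it was 0.82, 3.76, 6.58 and 5.53% in MidK2 at days 18, 22, 29 and 36, against 1.42% in MEF2. It was 3.83, 7.92 and 8.32% in MidK1 and 0.916, 1.90 and 5.0% in LowK at days 35, 52 and 56, against 5.62% in MEF1. In every course the last library was above the first. Over all sites the shares were 12.4, 15.9, 18.0 and 13.9% in MidK2 and 14.1% in MEF2, 7.18, 13.8 and 10.7% in MidK1 and 7.36, 8.73 and 9.40% in LowK, against 11.0% in MEF1. As for Atrx, the lower reporting limits of the MEF2 and MidK2 tables can add to this all-site gap between the sets.

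Relative to MEF2, Ogt was 2.34, 5.11 and 4.16 points higher in MidK2 at days 22, 29 and 36 over core sites (adjusted p = 2.73e-05, 3.08e-10 and 4.85e-11, Fisher's exact test). Over all sites the same differences were -0.514, 2.93 and 1.72 points and none passed (adjusted p = 0.732, 0.0574 and 0.253, Fisher's exact test). The median gene was 7.80, 5.72 and 0.593 points above MEF2 on these days over core sites, so Ogt was below it at days 22 and 29 and above it at day 36. Between the ends of the course 17 of 18 Ogt sites were higher at day 36 than at day 18 and 1 was equal. In LowK, Ogt fell by 4.75 points at day 35 and 4.03 points at day 52 relative to MEF1 (adjusted p = 2.03e-08 and 8.26e-06, Fisher's exact test). MEF2 itself was 4.21 points below MEF1 (adjusted p = 4.73e-05, Fisher's exact test), a difference between those of LowK from MEF1 at days 35 and 52. Over all sites LowK was 4.52 and 3.51 points below MEF1 at days 35 and 52 and MidK1 at day 35 5.71 points below it (adjusted p = 0.0047, 0.0386 and 0.0230, Fisher's exact test).

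MidK1 had a higher Ogt share than LowK by 3.03, 6.17 and 3.32 points at days 35, 52 and 56 over core sites (adjusted p = 2.45e-05, 2.08e-18 and 0.00623, Fisher's exact test). At day 52 all 24 shared core sites were higher in MidK1, by 0.83 to 18.8 points. Over all sites the differences were 0.423, 5.48 and 4.10 points, and with the 3 days as units the mean difference of 2.06 points gave p = 0.500 (two-sided exact permutation test). The same exact permutation test gave a mean difference of 0.451 points and p = 0.9 for Atrx. Over core sites the exact permutation test gave 4.08 points (p = 0.200) for Ogt and 1.94 points (p = 0.300) for Atrx. At the 17 sites listed on every MidK2 day, Ogt had 10.7, 51.4, 63.8 and 77.5 reference reads per 100000 at days 18, 22, 29 and 36. Variant reads were 1282, 1436, 905 and 1348 per 100000, so the reference base stayed a small part of the Ogt reads.

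The counts of passing tests for the 3 genes are set here beside those of all genes. Against the own MEF library, 20 member tests gave 0 calls by Fisher's exact test, with 7.47% of all genes called. The adjusted p alone was passed by 4 of the 20 over all sites, 1 higher and 3 lower, and by 10 over core sites, 6 higher and 4 lower, against 35.0% and 35.3% of all genes. The median difference of the members was 0.358 points, beside 1.60 points over all genes. These tests share the MEF1 or MEF2 library, so they are not independent. Between consecutive days, 21 member tests gave 0 calls, with 1.37% of all genes called, while 10 passed the adjusted p over all sites and 11 over core sites, against 24.5% and 25.2% of all genes. MEF2 against MEF1 gave 0 calls in 2 member tests and 0.0% over all genes, and 1 member, Ogt, passed the adjusted p in both versions, against 30.5% of all genes over all sites and 33.1% over core sites.

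With libraries as units, neither Atrx nor Ogt passed a test between reprogrammed cells and fibroblasts. Atrx averaged 13.2 ± 7.72% in reprogrammed libraries (SD, n = 10) and 14.4 ± 6.93% in MEF libraries (SD, n = 2) over all sites (p = 0.818, two-sided exact permutation test). Ogt averaged 11.7 ± 3.67% in reprogrammed libraries (SD, n = 10) and 12.6 ± 2.23% in MEF libraries (SD, n = 2; p = 0.758, two-sided exact permutation test). The smallest p this design can give is 0.0152. These means pool courses, days and both sets of tables. Within the MEF2 set Atrx averaged 21.3% in reprogrammed libraries (n = 4) against 19.3% in MEF2, and within the MEF1 set 7.82% (n = 6) against 9.49% in MEF1 (p = 1.0 and 0.714, exact permutation tests). Ogt averaged 15% in reprogrammed libraries against 14.1% in MEF2, and 9.53% against 11.0% in MEF1 (p = 1.0 and 0.571, exact permutation tests). The sign differed between the sets for both genes, and the smallest p is 0.2 in the MEF2 set and 0.143 in the MEF1 set.

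Within a library the 3 genes could be set against each other at core sites, in 32 Fisher's exact tests adjusted together. Med14 differed from Atrx in 7 of 10 libraries, with differences of -0.487 to 44.0 points, and from Ogt in 6 of 10, with -3.46 to 40.0 points. Ogt and Atrx differed in 6 of 12 libraries, by -2.90 to 4.36 points. In MidK2 at day 22 Ogt was 2.90 points below Atrx, the lowest of these differences, and at day 36 it was 4.01 points above Atrx. The largest Med14 differences were in MidK2, so the level of Med14 there was not shared by the other 2 genes in the same RNA. From day 22 on, these MidK2 differences include the Med14 site at 12675959, which raises them. At day 18, which does not list that site, Med14 was 25.1 points above Atrx and 26.4 points above Ogt.

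Genes near Med14 on the chromosome stood at levels of their own. Within 1 Mb of its sites 8 genes had a measured site, and 4 of the 7 tested against the own MEF library were called in some library: 1810030O07Rik, Atp6ap2, Bcor and Usp9x. Of all genes so tested, 17.9% were called in at least 1 library. Bcor, a BCL6 corepressor, had a site median of 38.5% in MidK2 at day 36 and 57.7% in MidK1 at day 35. The transcript 1810030O07Rik, whose first site lies at 12655037, had 66.7% in MidK2 at day 36 and 72.2% in MidK1 at day 35. Med14, with a median of 5.41% over core sites in MidK1 at day 35, was thus below both of these genes, which lie on its centromeric side, in that library. Atp6ap2, an accessory subunit of the proton pump on the same side, had 19% in MidK2 at day 36 and 7.89% in MidK1 at day 35. Usp9x, a deubiquitinase, had 22.0% in MidK2 at day 36 and 16.8% in MidK1 at day 35. The RNA helicase gene Ddx3x had 50.8% in MidK2 and 48.9% in MidK1, and Cask, a scaffold kinase gene, 0% in MidK2 and 3.85% in MidK1, in the same libraries. None of the 7 neighbours tested between MidK2 at day 36 and MidK1 at day 35 was called. Between MidK1 and LowK at matched days, 3 of 7 tested were called on some day: 1810030O07Rik, Bcor and Usp9x. Counted per gene and pair, 8.3% of all tests were called there, a share that is not directly comparable with genes called on some day. Bcor was 53.7, 41.1 and 40.4 points higher in MidK1 at days 35, 52 and 56.

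Near Ogt, 20 genes had a measured site, and 0 of the 9 tested against the own MEF library were called. Med12, another Mediator subunit gene, had a site median of 2.94% in MidK2 at day 36 and 12.9% in MidK1 at day 56, on 5 sites each. These libraries differ in day and in set of tables, so the values are no matched comparison of the courses. Near Atrx, 9 genes had a measured site and 0 of 7 tested were called. Cox7b, a subunit of cytochrome c oxidase, had 0.513 to 8.65% over the 12 libraries on 3 sites. Pbdc1 was higher, at 28.7 to 53.3%, in fibroblasts and reprogrammed cells alike.

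The genes whose share was nearest over libraries were Rlim, Hnrnph2 and Nkap for Atrx, with mean absolute differences of 3.1, 3.3 and 3.7 points over 12 libraries. For Ogt they were Prkx, Nkap and Armcx1 at 2.9, 3.2 and 3.8 points. For Med14 the nearest were Slc6a8, Dkc1 and Gpc3, at 9.0, 9.8 and 11.2 points over 10 libraries among 203 genes compared. No gene came as near to Med14 as the named ones came to Atrx and Ogt. The shares compared were over all sites and ranged from 4.46 to 53.1% in Med14, 3.96 to 26.9% in Atrx and 7.18 to 18.0% in Ogt. With ranges this unlike, the distances of the 3 genes are not directly comparable. The distances describe likeness of level and share the libraries and their depth.

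Of 32 other X-linked genes for chromatin and transcription proteins, those called against the own MEF library in the last library of a course are given here. In MidK2 at day 36 these were Bcor, the deacetylase gene Hdac6 and the transcription factor gene Tfe3, 3 of 19 tested, where 10.4% of all genes were called. Hdac6 had 27.1% in MidK2 at day 36 against 0.857% in MEF2, and Tfe3 33.6% in MidK2 against 3.39% in MEF2. In MidK1 at day 56, 2 of 16 were called, against 14.1% of all genes: Hdac6 with 38.9% in MidK1 against 2.49% in MEF1 and Tfe3 with 53.3% in MidK1 against 2.46% in MEF1. In LowK at day 56, 1 of 16 was called, against 4.91% of all genes: Hdac6 with 29.8% against 2.41% in MEF1. The list medians were 0.320, 1.29 and -1.58 points in these libraries, beside 0.611, 3.88 and 1.60 points over all genes. No listed gene was called lower in these 3 libraries relative to its MEF library.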

How the data were processed

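The deposited tables list variants of poly(A)-selected RNA-seq reads on chromosome X, 1 table per library, mapped to mm10, per the submitters' processing notes. Libraries were directional, from 500 ng of RNA, per the labels' protocols. Aligner and variant caller are not named in the sources used here. The authors deposited, for each variant, its read count and coverage as counts and its frequency as a percent, as the file headers name them. The reference share was computed as coverage minus count over coverage at single-base variants with at least 20 reads, keeping the allele with more reads at a position. Pairs of libraries were tested per gene with two-sided Fisher's exact tests on reads summed over shared sites, Benjamini-Hochberg adjusted over all genes of the pair, and called at adjusted p under 0.05 and at least 20 points. Libraries were compared with exact permutation tests, and intervals are 95% Wilson intervals. The test script was checked on simulated data. Sites were placed in GENCODE M21 transcripts. Named genes are the members, the 3 nearest in share over at least 10 libraries, genes within 1 Mb, and listed genes called in the last library of a course; Cox7b, Pbdc1, Med12 and the genes with values near Med14 among the neighbours were picked for description after their values were seen. The members and lists were chosen with earlier results of these data known. Alternatives varied the coverage minimum, call size, sites and libraries; core sites were added after the data were seen. Python 3.11.15, SciPy 1.17.1, pandas 2.3.3, NumPy 2.4.6 and matplotlib 3.10.9 were used.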

Additional observations from a re-analysis of the deposited data

Results flagged for a closer look

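The sign of the MidK1 minus LowK difference in Med14 turned between days: 7.94 points at day 35, -9.65 points at day 52 and -5.78 points at day 56 over all shared sites. The difference between the days was not tested.

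Reads without the Med14 2-base substitution, which lies outside the single-base sites, made up 45.5% in MidK2 at day 36 and 17.8% in LowK at day 56. Neither MEF library listed that position with at least 20 reads, so no fibroblast value stands beside them.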

How the results depend on the processing

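Of 463 recomputed differences between pairs of libraries, 443 kept their side of the 20-point call, 1 lost it, 1 gained it and 18 are given below as changes of sign. As 1 of the 55 differences was a call, this count says little about stability. Of the adjusted p alone, passed by 22 of the 55, 28 recomputed values gained it and 36 lost it, and at core sites 12 of 55 gained it and 2 lost it. Among the 443, 42 changed sign while neither value passed the adjusted p. The 4 Med14 calls against MEF2 exist at a minimum of 10 reads alone, and a call size of 10 points gave 1 Med14 call between consecutive days. Med14 in MidK2 day 36 over MidK1 day 35 was 20.6 points at its most covered site (adjusted p = 0.124, Fisher's exact test) and had no value at 50 reads or at sites in all tables. That site is no core site, and the 11 core sites of the pair differed by 30.7 to 49.3 points. In that pair Atrx was 1.22 points at 50 reads and 1.2 at sites in all tables, and Ogt -0.148 at 50 reads. MEF2 over MEF1 for Atrx was -1.17 points at 10 reads, -4.69 at the top site, -0.984 at sites in all tables, -1.62 at core sites and -1.07 at core sites with a distance of 50 bases. Reprogrammed over MEF for Atrx was 3.73 points without MEF replicate 2 and -6.07 without replicate 1, 2.02 within the MEF2 set, 9.31 at 50 reads, 1.59 by site medians, 0.801 at core sites and 0.569 at the 50-base core. For Ogt it was 0.756 without MEF replicate 2, -2.40 without replicate 1, 0.902 within the MEF2 set, 1.31 by medians, 0.939 at core sites and 0.830 at the 50-base core. With 1 MEF library left, exact permutation p ran from 0.455 to 1.0, the smallest possible being 0.0909.

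Signs also turned for Atrx in LowK day 35 over MEF1 (-2.19 core, -2.04 at the 50-base core), MidK1 day 35 over MEF1 (-3.97 at 50 reads), MidK2 day 22 over 18 (-0.269 at 50 reads), MidK2 day 36 over 29 (-2.20 core) and MidK1 over LowK at day 52 (-0.215 at the top site). They turned for Ogt in LowK day 35 over MEF1 (0.649 at the top site) and MidK2 day 22 over MEF2 (2.34 core, 2.66 at the 50-base core), and for Med14 in MidK1 over LowK at day 56 (0.190 at the top site). The cause was not tested. Leaving out 1 day, the mean MidK1 over LowK difference ran from -0.425 to 0.978 points in Atrx, from -12.7 to -0.127 in Med14 and from 0.559 to 3.19 in Ogt. With the day as a replicate block the means were 0.451, -4.97 and 2.06 points (exact sign-flip p = 1.0, 0.5 and 0.5, the smallest possible being 0.25). Depth limits Med14 most, which had no fibroblast site at 20 reads.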
